A study of Ovis aries with 36 samples.

Results

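The 60 genes described here encode WNT ligands, their receptors and regulators, and their RNA was sequenced from sheep cultures labelled ruminal epithelial cells. They were chosen by gene symbol from the 35223 genes of the count table: all WNT, FZD, SFRP, DKK, R-spondin (RSPO) and TCF/LEF genes, with LRP5, LRP6, AXIN1, AXIN2, AMER1 to AMER3, APC, RNF43, ZNRF3, LGR4 to LGR6, PORCN and WIF1. By role they are 19 ligands, the acyltransferase PORCN, 12 receptors and co-receptors, 9 secreted inhibitors, 9 genes of the R-spondin module, 6 scaffold genes of the destruction complex and 4 TCF/LEF factors.

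Ruminal epithelial cells form the inner lining of the forestomach, where they absorb volatile fatty acids (VFAs) made by rumen microbes. Cultured cells received a VFA mixture modelled on the rumen of grain-fed sheep (Grain) or of hay-fed sheep (Hay), and the study asked how the mixtures affect the daily rhythm of gene expression. Grain medium held 71.1 mM acetate, 20.1 mM propionate, 16.0 mM butyrate, 1.7 mM valerate, 1.1 mM isobutyrate and 5.3 mM isovalerate, and Hay medium held 60.8 mM acetate, 14.6 mM propionate, 9.2 mM butyrate, 1.2 mM valerate, 1.0 mM isobutyrate and 3.0 mM isovalerate. The labels name sodium salts as the source of the 3 main acids, so the media also differed in added sodium. All cells had first spent 2 h without serum in 100 nM dexamethasone, a glucocorticoid that brings cellular clocks into step, and both media were set to pH 7.2. Cells were harvested at 24, 28, 32, 36, 40 and 44 h, called T0, T4, T8, T12, T16 and T20, with 3 libraries of each medium at each time point, or 18 a medium. Cells kept without VFAs were not analysed here, and no label ties the 3 libraries to separate animals or cultures, so p-values measure the spread between libraries, which may be technical.

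WNT proteins are secreted lipid-modified ligands that bind Frizzled (FZD) receptors together with LRP5 or LRP6. In the canonical branch this stops a destruction complex, built on AXIN and APC, from marking beta-catenin for breakdown, and beta-catenin then acts in the nucleus with TCF/LEF factors. In many epithelia the pathway maintains stem and progenitor cells, and R-spondins strengthen it by protecting Frizzled receptors from the ubiquitin ligases RNF43 and ZNRF3.

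Total counts per library lay between 52397135 and 65339558 in Grain and between 55104601 and 68120879 in Hay. The difference between the media was broad: 22488 genes were tested, and 81.8% of them differed on the mean of the 6 time points. None of the marker lists of 15 epithelial, 15 mesenchymal, 8 blood cell and 6 endothelial genes had a gene at 0 in all libraries. Summed epithelial markers reached 397 to 853 CPM (counts relative to depth) in Grain and 567 to 660 CPM in Hay. Of the 15 genes, 3 were higher and 11 lower in Grain. This count and those of the other marker lists stand beside 37.9% of all genes tested that were higher and 43.9% that were lower. Summed mesenchymal markers reached 76375 to 129341 CPM in Grain and 68721 to 93598 CPM in Hay, with 8 of 15 higher and 7 lower. In every library the mesenchymal sum was thus far above the epithelial sum, although the cultures were labelled epithelial. Summed blood cell markers stood at 1.37 to 2.75 CPM in Grain and 1.83 to 4.20 CPM in Hay, with 2 of 8 higher and 4 lower. Summed endothelial markers stood at 6.19 to 10.4 CPM in Grain and 7.39 to 11.2 CPM in Hay, with 1 of 6 higher and 4 lower. The part of these markers in the results on WNT genes was not tested. In bulk libraries, fewer cells of a type and less RNA per cell cannot be told apart.

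More genes of the WNT group were lower than higher in Grain. Of the 59 tested, 15 were higher and 32 lower than in Hay by edgeR's quasi-likelihood test with a Benjamini-Hochberg adjusted p under 0.05, and 12 did not pass it. Over all genes tested, 37.9% were higher and 43.9% lower, against 25.4% and 54.2% of the WNT group. The median log2 fold change, Grain minus Hay, was -0.24 over the group and -0.07 over all genes tested. A difference of at least 2-fold was called for 12 WNT genes, 3 higher and 9 lower, where 21.7% of all genes tested met these limits, 5.7% higher and 16% lower. Tested against a minimum fold of 1.5, 16 were called, 5 higher and 11 lower, where 32.6% of all genes tested were, 12.2% higher and 20.4% lower. The exception among the 60 was RSPO4, an R-spondin, which had too few counts to be tested: 14 of 18 Grain libraries and 13 of 18 Hay libraries had no count of it.

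**Figure D1:**
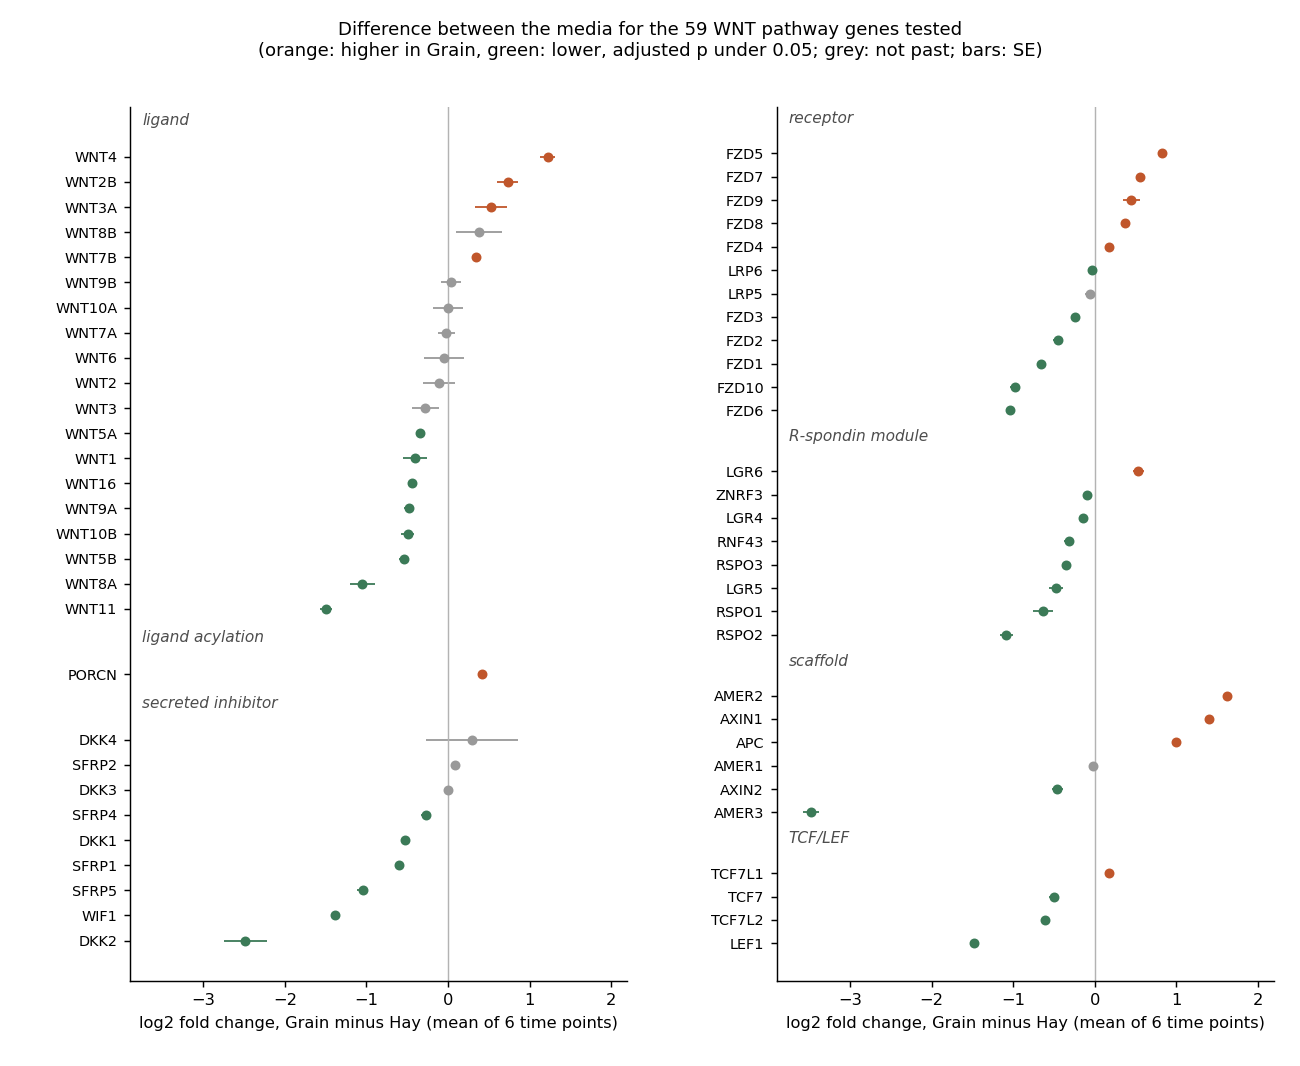
Log2 fold change of each of the 59 WNT genes tested, Grain minus Hay, as the mean of 6 time points (x axis, bars show the SE), grouped by role (y axis). Orange and green points passed an adjusted p of 0.05 and grey points did not; the values run between -3.48 for AMER3 and 1.63 for AMER2, and no secreted inhibitor was called higher.

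The clearest separation between the media concerned 17 genes whose 18 Grain libraries did not overlap the 18 Hay libraries. They made up 28.8% of the WNT genes tested, close to the 27.2% of all genes tested. The 5 that lay above Hay were AMER2, APC, AXIN1, FZD5 and FZD7, where 15.4% of all genes tested were separated in that direction. The 12 that lay below Hay were AMER3, DKK2, FZD1, FZD10, FZD6, LEF1, RSPO2, SFRP1, SFRP5, TCF7L2, WIF1 and WNT11, where 11.9% of all genes tested were. These shares set the counts against the breadth of the response, which reached most genes of the table.

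**Figure D2:**
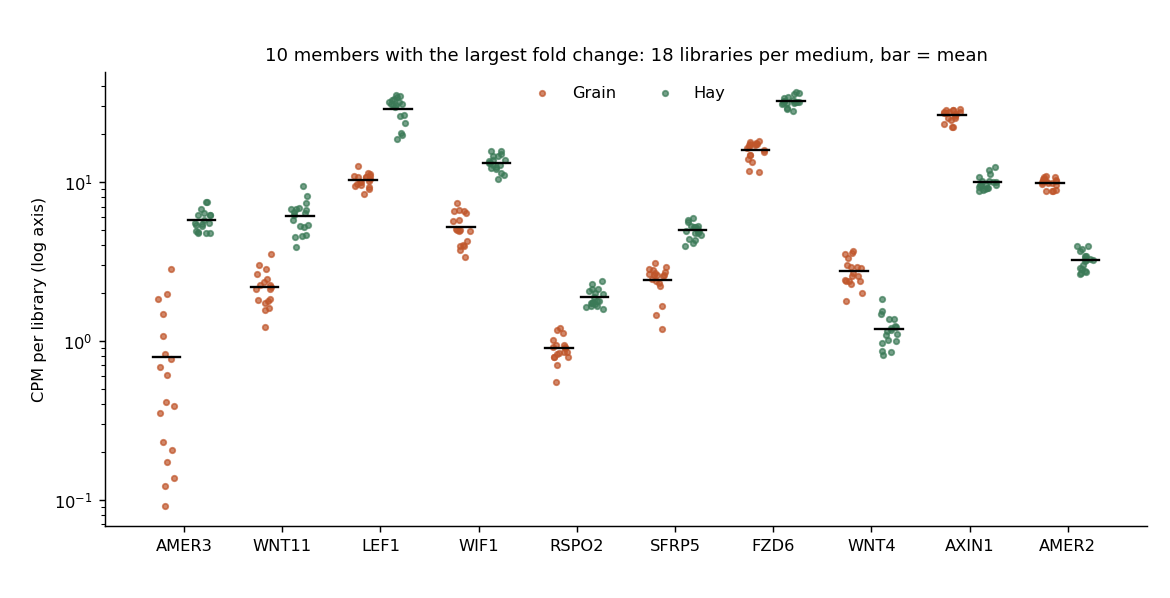
CPM of the 10 WNT genes with the largest fold change among those called and at 1 CPM or more in a medium, with each of the 18 Grain libraries and 18 Hay libraries as a point and the mean as a bar (y axis, log scale). WNT4 is the only gene of these 10 whose Grain and Hay libraries overlap, at 1.77 to 3.68 CPM in Grain and 0.808 to 1.83 CPM in Hay; levels of different genes are not comparable because CPM are not per length.

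Of the 19 ligands, 4 were higher, 8 were lower and 7 did not pass the test. Of all genes tested, 37.9% were higher and 43.9% lower. WNT11, a ligand best known for beta-catenin-independent signalling, had the largest fall among the ligands. Its level was 1.22 CPM in the lowest, 2.15 CPM in the median and 3.52 CPM in the highest Grain library, against 3.89, 6.28 and 9.50 CPM in Hay. All Grain libraries were below all Hay libraries, and the log2 fold change was -1.49 ± 0.0713 (SE, 18 libraries a medium; edgeR adjusted p = 1.05e-20). An overlapping long noncoding RNA changed by -1.56 on the log2 scale. The kit did not keep strand, so reads from any stretch that both genes share cannot be told apart. Whether they share exons was not checked.

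WNT4, a ligand with roles in epithelial organ development, moved the other way in the deposited counts. It reached 1.77, 2.63 and 3.68 CPM in the lowest, median and highest Grain library, against 0.808, 1.16 and 1.83 CPM in Hay. The ranges overlapped slightly, and the log2 fold change was 1.22 ± 0.0883 (SE; edgeR adjusted p = 2.79e-15). However, 2 long noncoding RNAs overlap WNT4 and were lower in Grain, by -1.11 and -1.49 on the log2 scale. With their counts added to those of WNT4, the sum stood at 4.03 ± 0.746 CPM in Grain and 3.92 ± 0.398 CPM in Hay (SD, n = 18 each). The log2 fold change of the sum was 0.03, with an edgeR adjusted p of 0.664. Whether the 3 genes share exons was not checked, so how many reads they share is not known.

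WNT5A, the main ligand of the beta-catenin-independent branch, had the highest CPM of the ligands, a scale that does not correct for length. It stood at 21.5, 25.1 and 32.6 CPM in the lowest, median and highest Grain library and at 26.1, 31.9 and 42.9 CPM in Hay. The fall was small, -0.34 ± 0.0196 on the log2 scale (SE; edgeR adjusted p = 3.13e-18), and it was called at each of the 6 time points. WNT16, a ligand of skin and bone, fell likewise, with 5.42, 7.51 and 9.84 CPM in Grain against 7.93, 9.82 and 13.2 CPM in Hay and a log2 fold change of -0.44 ± 0.0435 (SE; edgeR adjusted p = 1.37e-11). The libraries of both genes overlapped between the media.

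The other ligands called lower were WNT5B, WNT9A, WNT10B, WNT1 and WNT8A, with log2 fold changes between -0.40 for WNT1 and -1.05 for WNT8A, and the last 2 stayed under 1 CPM on average in both media. WNT7B was higher by 0.34, WNT3A by 0.53 and WNT2B by 0.73, the second of them again under 1 CPM. WNT2B overlaps ST7L, a protein-coding gene with more counts that was lower by -0.96, and how many reads the pair shares is not known. Summed with ST7L, the log2 fold change of WNT2B turned to -0.45 (edgeR adjusted p = 1.57e-23). WNT2, WNT3, WNT6, WNT7A, WNT8B, WNT9B and WNT10A did not pass the test. WNT6 and WNT10A overlap the same long noncoding RNA, which was lower by -1.08. Summing WNT6 or WNT10A with it gave log2 fold changes of -0.58 and -0.47 that did pass (edgeR adjusted p = 0.00015 and 0.00047).

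PORCN, the enzyme of the endoplasmic reticulum that attaches the lipid WNT proteins need for secretion and receptor binding, was higher in Grain. Its level was 12.0, 14.9 and 16.9 CPM in the lowest, median and highest Grain library, against 9.37, 10.9 and 14.1 CPM in Hay. The ranges overlapped, and the log2 fold change was 0.42 ± 0.0398 (SE; edgeR adjusted p = 4.21e-12), called at all 6 time points. Together with the overlapping gene EBP it was 0.38.

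The 10 Frizzled receptors split evenly: FZD4, FZD5, FZD7, FZD8 and FZD9 were higher, and FZD1, FZD2, FZD3, FZD6 and FZD10 lower in Grain. All genes tested were split in a similar way, with 37.9% higher and 43.9% lower. FZD6, a receptor linked to planar cell polarity in skin, fell most, with 11.6, 16.4 and 18.2 CPM in the lowest, median and highest Grain library against 28.0, 32.0 and 36.7 CPM in Hay. No library of one medium reached the range of the other, and the log2 fold change was -1.04 ± 0.0212 (SE; edgeR adjusted p = 2e-32). FZD1 was at 63.1, 65.8 and 72.2 CPM in Grain against 88.5, 104 and 122 CPM in Hay, again without overlap, with a log2 fold change of -0.66 ± 0.0148 (SE; edgeR adjusted p = 4.8e-31). FZD10 fell by 0.98 on the log2 scale, also without overlap.

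Among the receptors that rose, FZD5 ranged between 20.2 and 32.4 CPM in Grain and between 13.0 and 17.0 CPM in Hay, a log2 fold change of 0.82 ± 0.0289 (SE). FZD7 ranged between 21.0 and 30.2 CPM in Grain and between 15.3 and 18.7 CPM in Hay, a log2 fold change of 0.56 ± 0.0234 (SE). Both were apart in all libraries and called higher at all 6 time points. FZD8, FZD9 and FZD4 rose by 0.37, 0.45 and 0.17 on the log2 scale with overlapping libraries.

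The co-receptors hardly differed. LRP6 had 139, 154 and 165 CPM in the lowest, median and highest Grain library and 140, 157 and 172 CPM in Hay, with a log2 fold change of -0.04 ± 0.0168 (SE) that only just passed the threshold (edgeR adjusted p = 0.0498). The call of LRP6 was lost in 21 of 36 fits that each left out a library. LRP5 had a log2 fold change of -0.06 ± 0.0608 (SE) and did not pass the test (edgeR adjusted p = 0.39).

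Of the 9 secreted inhibitors, 6 were lower in Grain, none was called higher, and 3 did not pass the test. Over all genes tested, 43.9% were lower and 37.9% higher. By edgeR at an unadjusted p under 0.05, and by DESeq2, 0 of them were higher as well; with DESeq2, or with its size factors in edgeR, 7 instead of 6 were lower. WIF1, which binds WNT ligands outside the cell, was at 3.35, 5.01 and 7.35 CPM in the lowest, median and highest Grain library, against 10.4, 13.2 and 15.7 CPM in Hay. The media did not overlap, and the log2 fold change was -1.38 ± 0.0376 (SE; edgeR adjusted p = 1.91e-28). SFRP5, a secreted Frizzled-related decoy, was at 1.18, 2.60 and 3.09 CPM in Grain against 3.96, 4.92 and 5.91 CPM in Hay, again without overlap, with a log2 fold change of -1.05 ± 0.0694 (SE; edgeR adjusted p = 2.25e-16).

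The decoy SFRP1 ranged between 53.4 and 64.2 CPM in Grain and between 80.0 and 94.1 CPM in Hay, apart in all libraries, with a log2 fold change of -0.60. DKK1, which blocks LRP5 and LRP6, fell by 0.52 and SFRP4 by 0.27 on the log2 scale, both with overlapping libraries. DKK2 had a log2 fold change of -2.48 ± 0.261 (SE), but it averaged 0.114 CPM in Grain and 0.519 CPM in Hay, and 3 of the 18 Grain libraries had no count. DKK3, a divergent member of the Dickkopf family, had the highest CPM of the inhibitors and stood at 368, 395 and 431 CPM in the lowest, median and highest Grain library against 366, 397 and 415 CPM in Hay. Its log2 fold change was -0.00094 ± 0.0111 (SE; edgeR adjusted p = 0.944). This mean covers opposite differences (interaction edgeR adjusted p = 0.00586). DKK3 was at 390 ± 9.75 CPM in Grain and 411 ± 5.51 CPM in Hay at T8. At T12 it was at 398 ± 4.29 and 370 ± 4.08 CPM (SD, n = 3 each). SFRP2 at 0.09 and DKK4 at 0.29 did not pass the test on the mean either.

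In the R-spondin module, 7 of 8 genes tested were lower and LGR6 was higher in Grain, where 43.9% of all genes tested were lower. RSPO2, an R-spondin ligand, was at 0.549, 0.874 and 1.20 CPM in the lowest, median and highest Grain library against 1.60, 1.79 and 2.37 CPM in Hay. No libraries overlapped, and the log2 fold change was -1.08 ± 0.0789 (SE; edgeR adjusted p = 3.63e-15). RSPO3, the R-spondin with the highest CPM, was at 40.3, 54.4 and 82.2 CPM in Grain against 54.9, 73.3 and 95.0 CPM in Hay, with overlapping ranges and a log2 fold change of -0.36 ± 0.0255 (SE; edgeR adjusted p = 1.97e-15). RSPO1 fell by 0.63 on the log2 scale at under 1 CPM in both media.

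The R-spondin receptors LGR4 and LGR5 were lower by -0.14 and -0.47, and LGR6 was higher by 0.54 on the log2 scale. The ubiquitin ligases that clear Frizzled receptors were both slightly lower, RNF43 by -0.32 and ZNRF3 by -0.09. RNF43 overlaps SUPT4H1, which had far more counts, and LGR6 overlaps UBE2T, so the values of both are uncertain. Summed with these genes, RNF43 stood at -0.13 and LGR6 at 0.19 on the log2 scale.

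The scaffold genes held both the largest rise and the largest fall of the 48 genes that reached 1 CPM in a medium. AMER2, a membrane-bound partner of APC, was at 8.78, 10.1 and 10.9 CPM in the lowest, median and highest Grain library, against 2.64, 3.23 and 3.94 CPM in Hay. AXIN1, the limiting scaffold of the destruction complex, was at 22.1, 27.0 and 28.7 CPM in Grain, against 8.77, 9.61 and 12.4 CPM in Hay. APC, which binds beta-catenin within the complex, was at 278, 385 and 488 CPM in Grain, against 164, 186 and 236 CPM in Hay. All 3 genes lay above Hay in every library, with log2 fold changes of 1.63 ± 0.0387, 1.40 ± 0.0297 and 0.99 ± 0.0172 (SE), or 3.09, 2.64 and 1.99 times, and edgeR adjusted p-values of 2.43e-30, 6.16e-32 and 1.2e-34.

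AMER3, the third member of that family and likewise a partner of APC, fell most. It was at 0.0916, 0.511 and 2.82 CPM in the lowest, median and highest Grain library against 4.74, 5.53 and 7.50 CPM in Hay. The libraries were apart, and the log2 fold change was -3.48 ± 0.0937 (SE; edgeR adjusted p = 1.32e-28), or 11.1 times lower. The Grain level rested on low counts, down to 6 in the lowest library. AXIN2, both a scaffold and a feedback target of the pathway, fell by 0.46 on the log2 scale with overlapping libraries, and by 0.16 when summed with overlapping long noncoding RNAs. AMER1 had a log2 fold change of -0.02 and did not pass the test (edgeR adjusted p = 0.589). Its difference depended on time (interaction edgeR adjusted p = 0.00615). AMER1 was at 13.1 ± 1.13 CPM in Grain and 15.5 ± 0.915 CPM in Hay at T4. At T16 it was at 16.6 ± 1.84 and 13.4 ± 0.936 CPM (SD, n = 3 each).

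Of the factors that carry the signal to DNA, LEF1, TCF7L2 and TCF7 were lower and TCF7L1, best known as a repressor, was higher in Grain. Among all genes tested, 43.9% were lower and 37.9% higher. LEF1 was at 8.47, 10.3 and 12.6 CPM in the lowest, median and highest Grain library against 18.7, 31.0 and 35.4 CPM in Hay. The libraries did not overlap, and the log2 fold change was -1.47 ± 0.0298 (SE; edgeR adjusted p = 1.43e-32). TCF7L2 ranged between 13.1 and 16.8 CPM in Grain and between 20.7 and 24.6 CPM in Hay, again apart, with a log2 fold change of -0.61. TCF7 fell by 0.50 and overlaps SKP1, whose far larger count fell by 0.57, while TCF7L1 rose by 0.18 on the log2 scale.

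Of the 47 WNT genes called on the mean, 39 had the same sign at all 6 time points, or 83%, close to the 81.6% of all genes called on the mean that did. In the fit to all 36 libraries, 15 WNT genes were called lower at each of the 6 time points, where 18% of all genes tested were. Another 7 were called higher at each of them, where 21% were. The 15 were AMER3, DKK2, FZD1, FZD6, FZD10, LEF1, RSPO2, RSPO3, SFRP1, SFRP5, TCF7L2, WIF1, WNT5A, WNT11 and WNT16, and the 7 were AMER2, APC, AXIN1, FZD5, FZD7, PORCN and WNT4.

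At T0, 13 WNT genes were higher and 23 lower, 36 in all, against 31.6%, 31.2% and 62.8% of all genes tested. At T4, 13 were higher and 27 lower, 40 in all, against 29.9%, 27.9% and 57.8%. At T8, 15 were higher and 24 lower, 39 in all, against 29.5%, 27.2% and 56.8%. In each of these harvests the WNT genes called lower outnumbered those called higher.

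At T12, 12 were higher and 25 lower, 37 in all, against 30.7%, 33.6% and 64.3% of all genes tested. At T16, 12 were higher and 25 lower, 37 in all, against 30.2%, 32.5% and 62.7%. At T20, 10 were higher and 23 lower, 33 in all, against 29.7%, 29.2% and 58.9%. The excess of lower calls thus held in the later harvests as well.

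The size of the difference depended on time for 21 WNT genes by the F test of the medium by time interaction, where 32.6% of all genes tested passed it. AMER3 had the smallest p. In Grain it had 0.610, 0.391 and 0.353 CPM at T0, 0.137, 0.229 and 0.0916 CPM at T4 and 0.204, 0.122 and 0.172 CPM at T8, then 1.84, 2.82 and 1.97 CPM at T12, 1.08, 0.773 and 1.48 CPM at T16 and 0.412, 0.687 and 0.825 CPM at T20. In Hay it had 4.95, 4.82 and 4.78 CPM at T0, 6.24, 6.80 and 6.20 CPM at T4, 6.18, 7.50 and 5.27 CPM at T8, 4.74, 5.35 and 4.77 CPM at T12, 5.44, 5.53 and 6.42 CPM at T16 and 7.44, 5.74 and 5.52 CPM at T20. The T12 libraries were the highest in Grain and among the lowest in Hay. The log2 fold change was accordingly -5.40 ± 0.266 at T4 and -1.16 ± 0.186 at T12 (SE, 3 libraries a group; interaction edgeR adjusted p = 1.26e-12).

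LEF1 changed over time mainly in Hay. In Grain it had 10.4, 10.0 and 8.47 CPM at T0, 10.9, 10.7 and 11.2 CPM at T4, 8.98, 11.0 and 10.8 CPM at T8, 12.6, 11.3 and 10.8 CPM at T12, 10.2, 9.40 and 9.32 CPM at T16 and 9.75, 9.60 and 10.0 CPM at T20. In Hay it had 31.2, 33.0 and 30.5 CPM at T0, 32.1, 33.5 and 34.3 CPM at T4, 31.2, 34.7 and 35.4 CPM at T8, 19.7, 20.5 and 18.7 CPM at T12, 23.4, 26.2 and 26.4 CPM at T16 and 29.7, 31.8 and 30.7 CPM at T20. The Hay libraries of T12 were the lowest of that medium and still above every Grain library. The log2 fold change was -1.72 ± 0.0725 at T8 and -0.76 ± 0.0730 at T12 (SE; interaction edgeR adjusted p = 3.41e-09).

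LGR4 showed the reverse, with a time course in Grain and little in Hay. In Grain it had 52.7, 49.1 and 45.5 CPM at T8 and 73.1, 76.7 and 70.5 CPM at T12, and in Hay it had 64.1, 64.2 and 65.3 CPM at T8 and 67.8, 65.9 and 64.6 CPM at T12. Grain was thus below Hay at T8 and above it at T12, in all libraries. The log2 fold change was -0.39 ± 0.0419 at T8 and 0.15 ± 0.0415 at T12 (SE; edgeR adjusted p = 2.56e-10 and 0.00164), and the interaction had an edgeR adjusted p of 2.72e-09.

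FZD1 stayed between 63.1 and 72.2 CPM in all Grain libraries, whereas in Hay it had 93.2, 88.5 and 91.1 CPM at T8 and 119, 113 and 122 CPM at T12. Its log2 fold change was -0.49 ± 0.0362 at T8 and -0.86 ± 0.0364 at T12 (SE; interaction edgeR adjusted p = 2.86e-06). WNT5B, which overlaps FBXL14, had a difference of -0.97 at T12 on the log2 scale and of 0.09 at T8, where it was not called. In Grain it had 4.59, 4.15 and 4.42 CPM at T8 and 2.99, 2.63 and 2.31 CPM at T12, and in Hay 3.86, 5.03 and 3.44 CPM at T8 and 4.67, 5.09 and 5.73 CPM at T12.

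**Figure D3:**
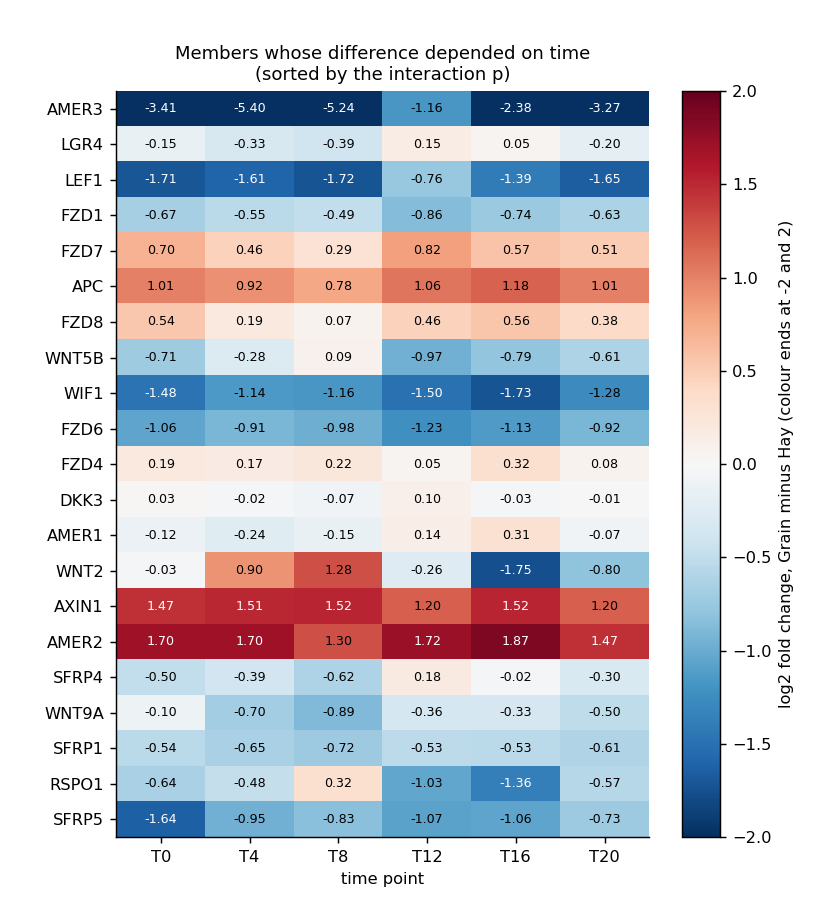
Log2 fold change, Grain minus Hay, at each of the 6 time points (x axis) for the 21 WNT genes whose difference depended on time, sorted by the interaction p (y axis); the colours end at -2 and 2 and the values are printed in the cells. AMER3 is at -5.40 at T4 and -1.16 at T12, LGR4 is below 0 at T8 and above 0 at T12, and APC, AXIN1 and AMER2 stay above 0 throughout.

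Within a medium, 29 WNT genes differed between time points in Grain, where 51.5% of all genes tested did, and 25 in Hay, where 35.2% did. The 18 genes called in both media, where 27.3% of all genes tested were, made up 18 of the 29 in Grain and 18 of the 25 in Hay. Without the T12 libraries, a setting chosen after the values by time were seen, 58 WNT genes were tested, of which 26 differed in Grain and 17 in Hay, and the interaction was called for 14 instead of 21. Of all genes tested in that setting, 41.5% differed in Grain and 22.7% in Hay, and 23.7% had the interaction, so the counts fell over the whole table as well.

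Several of these time courses had a step between T8 and T12, and this contrast was added after the values had been seen. In Grain, 25 WNT genes differed, 13 higher and 12 lower at T12 than at T8, where 50% of all genes tested differed, 23.5% higher and 26.5% lower. In Hay, 29 differed, 15 higher and 14 lower, where 36.1% of all genes tested differed, 19.6% higher and 16.4% lower. APC, FZD5, LRP6, RSPO3, SFRP2 and WNT5A were higher at T12 in both media, and DKK1, FZD3, FZD6, LGR5, PORCN, WIF1, WNT9B, WNT11 and WNT16 were lower in both. LEF1 and WNT5B were called in opposite directions. Of all genes tested, 11.9% were higher in both media, 9.31% lower in both and 4.15% in opposite directions, against 10.2%, 15.3% and 3.39% of the WNT group. The TMM factors that scale library sizes were 1.04 to 1.05 at T8 and 0.859 to 0.869 at T12 in Grain. In Hay they were 1.07 to 1.09 at T8 and 0.982 to 1.00 at T12. The step was not tested with other factors, and a small step such as that of LRP6 depends on them.

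RSPO3 illustrates the shared rise. In Grain it had 46.0, 40.3 and 44.3 CPM at T8 and 78.6, 77.0 and 82.2 CPM at T12, and in Hay it had 57.6, 54.9 and 56.6 CPM at T8 and 89.8, 95.0 and 90.4 CPM at T12. The step was 0.86 ± 0.0631 in Grain and 0.70 ± 0.0618 in Hay on the log2 scale (SE; edgeR adjusted p = 3.48e-14 and 9.55e-12), and the interaction did not pass the test (edgeR adjusted p = 0.352). APC had a step of 0.74 ± 0.0418 in Grain and 0.45 ± 0.0421 in Hay. LGR5, a stem cell marker of the intestine and a receptor for R-spondins, fell at the same point, with 2.42, 2.32 and 2.65 CPM at T8 and 1.15, 1.18 and 0.498 CPM at T12 in Grain, and 2.95, 3.32 and 3.14 CPM at T8 and 1.90, 2.26 and 1.23 CPM at T12 in Hay. Its steps were -1.38 ± 0.231 in Grain and -0.80 ± 0.212 in Hay (SE). All T12 libraries of LGR5 were below all T8 libraries of the same medium.

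**Figure D4:**
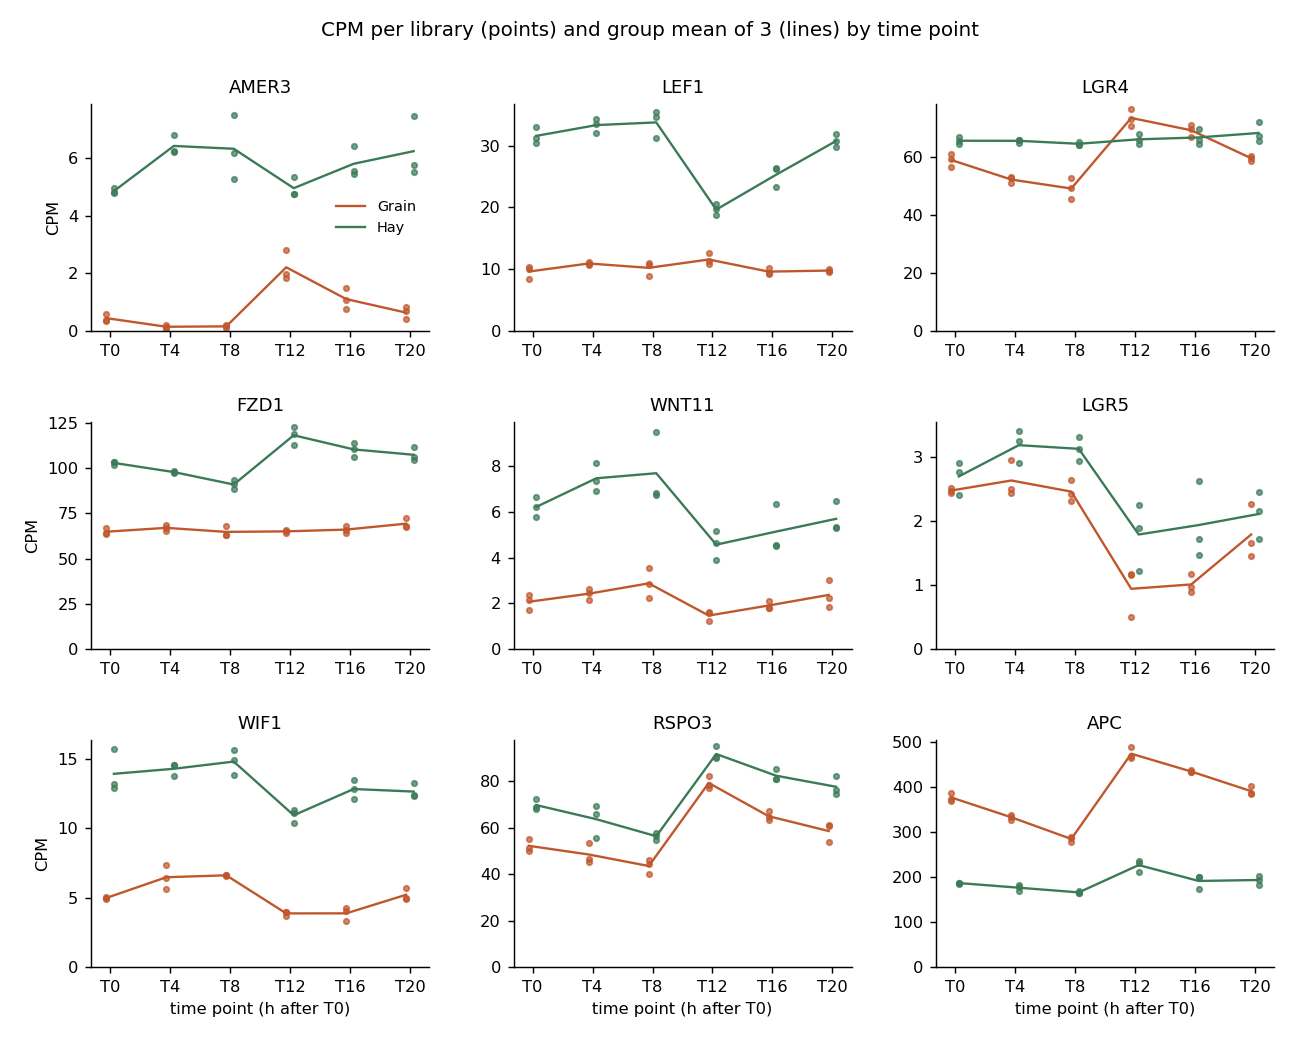
CPM of 9 WNT genes in each library (points) and the mean of 3 libraries (lines) at the 6 time points (x axis, hours after T0), with Grain in orange and Hay in green and the y axis starting at 0. AMER3 and LGR4 step up at T12 in Grain, LEF1 steps down at T12 in Hay, and RSPO3 and APC step up in both media.

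A 24 h component, a cosine and a sine with a period of 24 h fitted to each medium, was called for 17 WNT genes in Grain, where 31.8% of all genes tested had one, and for 12 in Hay, where 20.7% did. The 6 harvests span 20 h, less than a full cycle, so a single step or a drift can pass as such a component. In Grain, LGR5 had the smallest p, with a log2 amplitude of 0.80 ± 0.109 (SE) and a fitted peak 2.83 h after T0 (edgeR adjusted p = 1.21e-05). LGR4 followed with an amplitude of 0.23 ± 0.0331 and a peak at 15.7 h (edgeR adjusted p = 1.58e-05), and WIF1 with 0.36 ± 0.0596 and a peak at 3.99 h (edgeR adjusted p = 9.7e-05).

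In Hay the smallest p belonged to LEF1, with a log2 amplitude of 0.30 ± 0.0521 (SE) and a fitted peak at 2.08 h (edgeR adjusted p = 0.000173). FZD1 had 0.13 ± 0.0250 with a peak at 16.3 h (edgeR adjusted p = 0.000606), and WNT16 had 0.24 ± 0.0515 with a peak at 5.38 h (edgeR adjusted p = 0.00251). FZD3, LGR5, RSPO3 and WNT16 were called in both media, 4 of 17 in Grain and 4 of 12 in Hay, or 6.78% of the WNT genes tested against 9.21% of all genes tested. The component differed between the media for 9 WNT genes, where 11.3% of all genes tested did, among them AMER3 (edgeR adjusted p = 0.000179), LGR4 (0.00645), LEF1 (0.00696) and FZD1 (0.0486).

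The rest of the pathway was described with 5 further lists. Their counts stand beside the 37.9% of all genes tested that were higher and the 43.9% that were lower. Among 18 tested genes of WNT secretion and extracellular control, 6 were higher and 9 lower, with a median log2 fold change of -0.21. FRZB, a secreted decoy related to the SFRP genes, was at 3.20 ± 0.547 CPM in Grain and 8.77 ± 1.03 CPM in Hay (SD, n = 18 each), a log2 fold change of -1.45, and the libraries did not overlap. GPC3, a cell surface proteoglycan, and TPBG, an inhibitor at the membrane, fell by 1.35 and 0.56, while ADGRA2, a co-receptor for WNT7 ligands, rose by 1.12. These last 3 overlap other annotated genes.

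In the cytoplasm, 18 of 30 genes tested were higher and 11 lower, with a median of 0.34. Beta-catenin itself, CTNNB1, was at 142 ± 3.66 CPM in Grain and 280 ± 9.73 CPM in Hay (SD, n = 18 each), a log2 fold change of -0.97 ± 0.0126 (SE; edgeR adjusted p = 1.52e-38). The Grain libraries of CTNNB1 reached at most 147 CPM and the Hay libraries at least 262 CPM. The casein kinase CSNK1A1, which primes beta-catenin for breakdown, was higher by 0.54, the phosphatase subunit PPP2R1A by 0.79 and the Dishevelled-binding protein DACT3 by 1.35, each apart in all libraries.

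Of 18 nuclear partners of beta-catenin tested, 5 were higher and 9 lower, with a median of -0.04. The co-repressors TLE4 and TLE2 were higher by 0.40 and 0.81 on the log2 scale, the acetyltransferase EP300 by 0.29, and TBL1XR1, a partner of beta-catenin at target genes that overlaps another annotated gene, was lower by -0.40. In the beta-catenin-independent branch, 17 of 31 genes were higher and 11 lower, with a median of 0.08. RHOA, a GTPase of the cytoskeleton, was at 824 ± 34.6 CPM in Grain and 373 ± 80.6 CPM in Hay (SD, n = 18 each), a log2 fold change of 1.17. The kinases CAMK2D and CAMK2G of the calcium branch differed by -1.09 and 0.57, and the polarity gene VANGL1 by -0.65, although CAMK2D overlaps a long noncoding RNA.

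Genes known from other systems to be induced by beta-catenin did not move in a single direction: 15 of 34 were higher and 17 lower in Grain, with a median of -0.07, the same to 2 decimals as over all genes tested. SOX4, a transcription factor, was at 202 ± 28.3 CPM in Grain and 644 ± 67.9 CPM in Hay (SD, n = 18 each), a log2 fold change of -1.68. MYC, a growth regulator, was at 11.5 ± 1.07 CPM in Grain and 46.0 ± 5.54 CPM in Hay, a log2 fold change of -2.0. VEGFA, an angiogenic factor, and CD44, a hyaluronan receptor, rose by 1.5 and 1.55, and all 4 genes were apart in all libraries. Of the 34, AXIN2, DKK1, LEF1, LGR5, RNF43, TCF7 and ZNRF3 belong to the 60 WNT genes as well. These 7 were all lower in Grain, where 43.9% of all genes tested were. The 15 higher genes were thus all among the rest of the list. AXIN2, LGR5, RNF43 and TCF7 overlap other annotated genes. Summed with those, their log2 fold changes were -0.16, -0.48, -0.13 and -0.56. In Grain, SUPT4H1 made up 75.5 of the 79.8 CPM of the RNF43 sum, and SKP1 195 of the 199 CPM of the TCF7 sum. The sums of RNF43 and TCF7 therefore follow the overlapping genes and do not test the direction of RNF43 or TCF7. Whether the direction of the 7 reflects the output of the pathway was not tested.

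**Figure D5:**
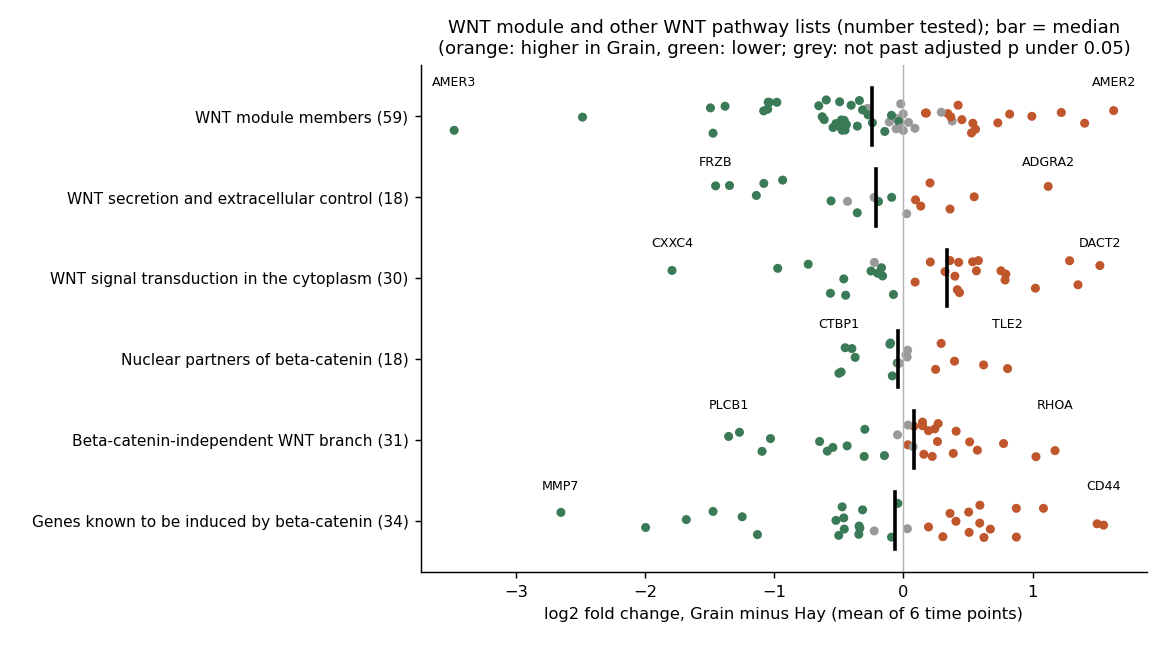
Log2 fold change, Grain minus Hay, as the mean of 6 time points (x axis) for the WNT genes and the genes of 5 other pathway lists (y axis, number tested in brackets); each point is a gene, orange and green passed an adjusted p of 0.05, grey did not, and the black bar is the median. The medians run between -0.24 for the WNT genes and 0.34 for cytoplasmic signal transduction, and every list holds genes on both sides of 0.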

How the data were processed

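Total RNA was turned into libraries with TruSeq RNA Library Prep v2, a kit that loses strand information, per the labels' protocols. The submitters' processing notes name HISAT2 2.2.1, SAMtools 1.20 and StringTie 2.1.5 without roles, and a genome build is not given in the sources used here. Counts of 35223 genes in 36 libraries were deposited by the authors, with no normalisation. The step that made them is not stated in the sources used here, so they may not be numbers of reads.

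Genes were filtered with filterByExpr of edgeR 4.0.16 (minimum count 10, minimum total count 15), which left 22488, and scaled by TMM. CPM use the TMM-scaled library sizes. A quasi-likelihood model (limma 3.58.1, R 4.3.3) with 12 group means (medium by time) gave the contrasts and F tests, and a cosine and sine per medium the 24 h component. All tests were two-sided, with Benjamini-Hochberg adjustment over all genes tested and a threshold of 0.05. The procedure was tested on simulated data in which few genes differed between the media. That setting does not cover a difference as broad as the one seen here.

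The WNT genes and lists were chosen with earlier results of these data known. Values are given for the 10 largest fold changes called at 1 CPM or more in a medium, the 4 smallest interaction p, the 3 smallest 24 h p a medium, the highest CPM of each role and, per further list, up to 4 smallest p at 5 CPM or more; other genes were chosen after their values were seen. A RefSeq gene table, which held all 60 symbols, was searched for overlaps between the start and end of genes. By this measure 20 overlap another annotated gene, 7 a protein-coding one. Exons and strand were not compared, so their values are uncertain to a degree that is not known. Alternatives were DESeq2 1.42.0, its size factors, no filter, a replicate block, each library left out, the libraries of a time point alone, a minimum fold of 1.5 and a linear trend, and, added after seeing the data, no T12 libraries and counts summed with overlapping genes.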

Additional observations from a re-analysis of the deposited data

Results flagged for a closer look

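For 21 WNT genes the difference between Grain and Hay was not the same at all 6 time points, by the F test of the interaction itself. These were 35.6% of the WNT genes tested, close to the 32.6% of all genes tested. The edgeR adjusted p-values were smallest for AMER3 (1.26e-12), LGR4 (2.72e-09), LEF1 (3.41e-09), FZD1 (2.86e-06), FZD7 (2.77e-05), APC (2.86e-05) and FZD8 (4.21e-05). They followed for WNT5B (0.000189), WIF1 (0.00196), FZD6 (0.00317), FZD4 (0.00317), DKK3 (0.00586), AMER1 (0.00615) and WNT2 (0.0067), and for AXIN1 (0.0071), AMER2 (0.00744), SFRP4 (0.00985), WNT9A (0.0152), SFRP1 (0.0295), RSPO1 (0.032) and SFRP5 (0.0439). Without the T12 libraries 14 genes were called, where 23.7% of all genes tested were. WNT2 and RSPO1 stayed under 1 CPM in both media, so their values rest on low counts.

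For 9 WNT genes the 24 h component itself differed between Grain and Hay, or 15.3% of those tested against 11.3% of all genes tested. The edgeR adjusted p-values of the difference were AMER3 (0.000179), WNT2 (0.00312), LGR4 (0.00645), LEF1 (0.00696), AMER1 (0.011), WNT5B (0.0245), FZD8 (0.0294), SFRP4 (0.0435) and FZD1 (0.0486). All of these 9 genes also had a difference that depended on time, a test on the same libraries.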

How the results depend on the processing

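The counts of WNT genes called kept within 1.5 times of their reported values with DESeq2 as the tool or for its size factors, without the low-count filter, with each time point fitted alone, without T12 and with overlapping genes summed, with the following exceptions. Against a minimum fold of 1.5, 16 genes were called on the mean of the 6 time points, 5 higher and 11 lower, against 32.6%, 12.2% and 20.4% of all genes tested. With a linear trend in place of the 24 h component, 0 WNT genes were called by edgeR in Grain and 0 in Hay, with 12 and 16 at an unadjusted p under 0.05; the same trend was called for 202 genes of the whole table in Grain and 572 in Hay, and DESeq2 was not run on it. DESeq2 size factors moved the median log2 fold change of all genes tested to -0.10, against -0.07 with TMM.

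Leaving out each library in turn gave 45 to 48 genes on the mean, 15 to 16 higher, 30 to 33 lower and 11 to 13 at least 2-fold. Single time points gave 32 to 38 at T0, 30 to 40 at T4, 32 to 40 at T8, 36 to 37 at T12, 33 to 39 at T16 and 32 to 37 at T20. The interaction gave 18 to 22, time in Grain 25 to 30, time in Hay 21 to 26, the 24 h component 16 to 20 in Grain and 10 to 15 in Hay, and its difference 6 to 10. The log2 fold change of DKK3 turned sign in 6 of these fits, with values between -0.0096 and 0.00255, and it was called lower by -0.03 with DESeq2 size factors. The call of WNT4 was lost when the counts of overlapping genes were added to its own. With such sums WNT2B turned from 0.73 to -0.45 on the log2 scale. The sums of WNT6 and of WNT10A with the same long noncoding RNA were called lower, though neither gene was called by itself. In that same fit LRP6, which has no overlapping gene, had an edgeR adjusted p of 0.0513, against 0.0498.

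Same-numbered replicates did not deviate together: the correlation of their deviations averaged 0.0015 over 198 pairs, with 0 pairs over 0.1, and 14 of 36 libraries correlated best with their own number. With the replicate number as a block, 47 genes were called on the mean and 21 for the interaction, and 7 instead of 9 for the difference of the 24 h component. Depth limits the genes under 1 CPM in both media most, 12 of the 60.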
